A study of Homo sapiens with 3 samples.

Results

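The human miRNAs hsa-miR-1202, hsa-miR-1225-5p, hsa-miR-1915, hsa-miR-638 and hsa-miR-940, all rich in G and C, were examined in Argonaute2 (Ago2) immunoprecipitates. They are 5 of 851 human miRNA names on the array, and were chosen by their measured signal, which was higher on a transfected array than on the non-treated (NT) array. The differences against NT therefore describe the choice and are no evidence for it. Hep G2, a human liver cancer cell line, was left non-treated or was transfected with a duplex that mimics miR-195 or miR-497, at 5 nM. Cells were taken at 24 h, and 10 ng of RNA from each immunoprecipitate was labelled with Cy3 and hybridised to 1 array. The 3 groups, NT, miR-195 and miR-497, held 1 array each on 1 slide, so no difference has a replicate check and no p-value is given. NT cells received no control duplex, so the mimic, the act of transfection and the single immunoprecipitation cannot be told apart.

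A miRNA is a short RNA cut from a hairpin precursor, and Ago2 holds it as the guide of the RNA-induced silencing complex. Bases 2 to 8 from its 5′ end, the seed, pair with target mRNAs. An Ago2 immunoprecipitate measured on an array reports which miRNAs were recovered with the protein, not their level in the whole cell. hsa-miR-1225-5p comes from a mirtron, a short intron that yields a precursor through splicing in place of Drosha cleavage. For the other members no role in hepatocytes is assumed here.

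The mature sequences, from the RefSeq table on GRCh38.p14, are shown because base composition is what the 5 miRNAs share. Capitals mark the seed.

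hsa-miR-1202: gUGCCAGCugcagugggggag
hsa-miR-1225-5p: gUGGGUACggcccagugggggg
hsa-miR-1915-5p: aCCUUGCCuugcugcccgggcc
hsa-miR-1915-3p: cCCCAGGGcgacgcggcggg
hsa-miR-638: aGGGAUCGcgggcggguggcggccu
hsa-miR-940: aAGGCAGGgcccccgcucccc
hsa-miR-324-3p: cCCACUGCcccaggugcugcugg

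hsa-miR-324-3p is no member and is shown as the comparator of like composition. The array name hsa-miR-1915 does not give the arm, so both arms are printed. The G+C share was 71.4% for hsa-miR-1202, 77.3% for hsa-miR-1225-5p, 80% for hsa-miR-638 and 81.0% for hsa-miR-940, and 72.7% or 90% for hsa-miR-1915. The median over 2370 human mature miRNAs in the table was 52.2%, and 8.99% of them had at least the share of hsa-miR-1202. The label of GC-rich therefore held for each member, whichever arm of hsa-miR-1915 was probed.

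The members were not alike in which base was in excess. G made up 52.4% of hsa-miR-1202, 59.1% of hsa-miR-1225-5p and 56% of hsa-miR-638, whereas C made up 52.4% of hsa-miR-940. hsa-miR-1202 and likewise hsa-miR-1225-5p carried an unbroken run of G near the 3′ end, of 5 and 6 bases. Such a run of 5 or more (GGGGG, searched on the mature strand) occurred in 3.04% of the mature miRNAs, 72 of 2370. No 2 members shared a seed. Among array names matched to a human sequence of the table, no other miRNA had one of their seeds. Of 851 human names, 114 had no match, so their seeds were not searched.

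The genes did not form a cluster. MIR1202 lies on the plus strand, with the mature sequence at chr6:155946809-155946829, within the span of LOC101928923. The mature hsa-miR-1225-5p lies at chr16:2090263-2090284 on the minus strand, within the span of PKD1, and starts at base 1 of its 90-base hairpin. MIR638 lies within DNM2, with its mature sequence at chr19:10718419-10718443 on the plus strand. MIR940 lies within MIR3677HG, with its mature sequence at chr16:2271806-2271826 on the plus strand. MIR1915 lies within MIR1915HG on the minus strand of chromosome 10.

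Each member had 2 probes with 8 spots each, 10 probes in all. Signals are background-subtracted fluorescence units on a linear scale, averaged over the spots of a probe without outlier flags and summed over both probes. Errors are SDs over spots of 1 array and hold nothing of the spread between cultures or immunoprecipitations. A probe counted as detected when more than 50% of its used spots were well above background, and a miRNA when 1 of its probes was. The arrays differed in brightness. The 75th percentile over the 183 probes detected on all 3 arrays was 827 units on NT, 778 on miR-195 and 263 on miR-497, whereas the 4 spike-in controls changed by a mean of -0.31 (miR-195) and -0.37 (miR-497) on the log2 scale against NT. Human miRNAs detected numbered 168, 153 and 121. Each transfected miRNA was far brighter on its own array, with hsa-miR-195 at 38522 units on miR-195 against 45.3 on NT, and hsa-miR-497 at 7903 on miR-497 against 11.8, not detected, on NT. Of 4 hepatic markers, miR-192, miR-194 and miR-215 were detected on all arrays and miR-122, the defining hepatocyte miRNA, on none. Of 5 blood cell markers, miR-142-3p and miR-142-5p were detected on all arrays, with a summed list level of 1726, 1436 and 460 units on NT, miR-195 and miR-497, and their part in the results was not tested. None of the 4 muscle or 2 neuronal markers was detected.

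hsa-miR-1202 was the brightest member on every array. Its level was 684 ± 30.1 units on NT, 1615 ± 86.9 on miR-195 and 463 ± 40.9 on miR-497. hsa-miR-1225-5p had 201 ± 10.2 units on NT, 550 ± 22.6 on miR-195 and 132 ± 7.69 on miR-497. Both were detected with both probes on all arrays, highest on miR-195 and lowest on miR-497.

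The other members were dim. hsa-miR-1915 had 31.7 ± 3.66 units on NT, 74.3 ± 6.15 on miR-195 and 17.3 ± 4.78 on miR-497. hsa-miR-638 had 31.9 ± 4.77 units on NT, 66.3 ± 3.96 on miR-195 and 24.9 ± 5.46 on miR-497. hsa-miR-940 had 16.0 ± 3.79 units on NT, 34.5 ± 2.37 on miR-195 and 12.4 ± 5.02 on miR-497. On miR-497 these 3 members were not well above background, and hsa-miR-940 was not on NT either. For scale, the 95th percentile of single negative control spots was 9.34 units on NT, 9.50 on miR-195 and 10.9 on miR-497, per spot and not per sum of 2 probes. The members detected numbered 4, 5 and 2 on the 3 arrays. Order between members is not drawn from these levels, because probes differ in their response.

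**Figure D1:**
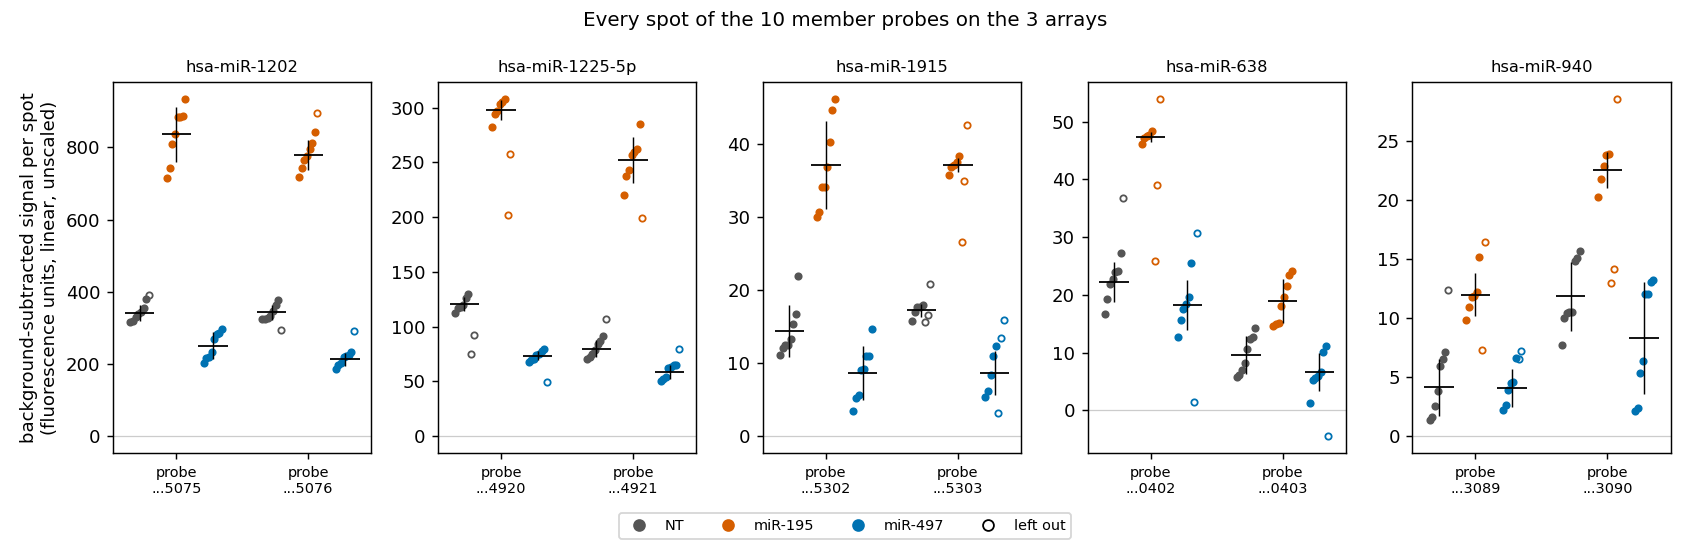
Signal of each spot (linear fluorescence units, no scaling) for the 2 probes of each member on the NT, miR-195 and miR-497 arrays; filled points were used, open points carried an outlier flag and were left out, and bars are the mean and SD over used spots of 1 array. For all 10 probes, of members picked for being higher, the used spots of miR-195 lie above those of NT. The 3 members on the right are the dim ones.

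Probe by probe, the order of NT and miR-195 was the same throughout. The first hsa-miR-1202 probe gave 341 ± 21.9 units on NT, 837 ± 76.2 on miR-195 and 251 ± 36.9 on miR-497. Its second probe gave 343 ± 20.7, 778 ± 41.8 and 212 ± 17.5 units. The probes of this miRNA were near equal in brightness, with the brighter at 1.01 ± 0.0887 times the dimmer on NT, 1.08 ± 0.114 on miR-195 and 1.18 ± 0.199 on miR-497.

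The probes of hsa-miR-1225-5p were less alike. The first gave 121 ± 6.49 units on NT, 298 ± 9.15 on miR-195 and 73.6 ± 4.40 on miR-497. The second gave 79.9 ± 7.91, 252 ± 20.7 and 58.7 ± 6.30 units. The ratio of the first to the second was 1.51 ± 0.170 on NT, 1.18 ± 0.103 on miR-195 and 1.25 ± 0.154 on miR-497.

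Among the dim members, detection rested on 1 probe in several cases. The 2 probes of hsa-miR-1915 gave 14.4 ± 3.54 and 17.2 ± 0.916 units on NT, of which the second was detected, and 37.1 ± 6.07 and 37.2 ± 0.976 on miR-195, where both were. The brighter hsa-miR-638 probe gave 22.3 ± 3.46 units on NT, 47.4 ± 0.847 on miR-195 and 18.3 ± 4.36 on miR-497, and its dimmer probe was detected on no array. The brighter hsa-miR-940 probe gave 11.8 ± 2.93 units on NT, 22.5 ± 1.55 on miR-195 and 8.32 ± 4.76 on miR-497, and was detected on miR-195 alone. In all, 6 of the 10 probes were detected on NT, 8 on miR-195 and 4 on miR-497. The name hsa-miR-1915*, given to the other arm, had -9.37, -9.39 and -9.14 units on NT, miR-195 and miR-497 and was not detected.

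Between miR-195 and NT, the used spots did not overlap for 10 of 10 probes, with miR-195 the higher, both as scanned and after scaling by the 75th percentile of each array. The count was made for member probes alone, which were picked for being higher. No share over all probes was counted, so it describes the choice. It also depended on the outlier flags. Of 80 spots per array, 10 were left out on NT, 15 on miR-195 and 11 on miR-497, and with those put back, a count added after the data were seen, 7 of the 10 probes were free of overlap.

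On the scaled log2 scale, hsa-miR-1202 was 1.33 ± 0.10 higher on miR-195 than on NT, or 2.51-fold. hsa-miR-1225-5p was 1.54 ± 0.09 higher, or 2.91-fold. The differences were 1.32 ± 0.20 for hsa-miR-1915 and 1.14 ± 0.23 for hsa-miR-638. For hsa-miR-940, which was not detected on NT, no measured fold could be given. Its ratio to its own NT signal was 2.29-fold and is counted here as a bound. That signal, 16.0 units, was above the lowest of any miRNA detected there, 11.1 units. The only hsa-miR-940 probe detected on miR-195 gave a lower bound of 1.51-fold when taken alone. Without scaling the differences were 1.24, 1.46, 1.23 and 1.05, and the bound was 2.16-fold. The scaling moved each of the 4 by less than its SD over spots. With bounds counted, all 5 members were at least 2-fold higher, but 1 of 5 was with the 75th percentile over every probe but the controls, 2 with normexp background correction, 3 with quantile normalization, and 4 with flagged spots kept or with the brighter probe alone.

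The members measured on both arrays were the 4 highest of 147 human miRNAs, the transfected ones aside. They were also the 4 that reached 2-fold, 2.72% of those measured, which is how they came to be chosen. The median of the 147 differences was -0.01 with scaling and -0.10 without. Counting bounds, 7 of 156 miRNAs (4.49%) were at least 2-fold higher, hsa-miR-940 among them. Just inside 2-fold stood hsa-miR-638 at 1.14, and just outside stood hsa-miR-1249 at 0.84 ± 0.37 and hsa-miR-923_v12.0 at 0.81 ± 0.15.

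The 2 probes of hsa-miR-1202 differed by 0.11 in their log2 difference (1.38 and 1.27), close to the median gap of 0.12 over 99 other miRNAs with 2 measured probes. Those of hsa-miR-1225-5p differed by 0.35 (1.39 and 1.75), beyond the 90th percentile of 0.29. Both probes of each still lay above 2-fold.

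**Figure D2:**
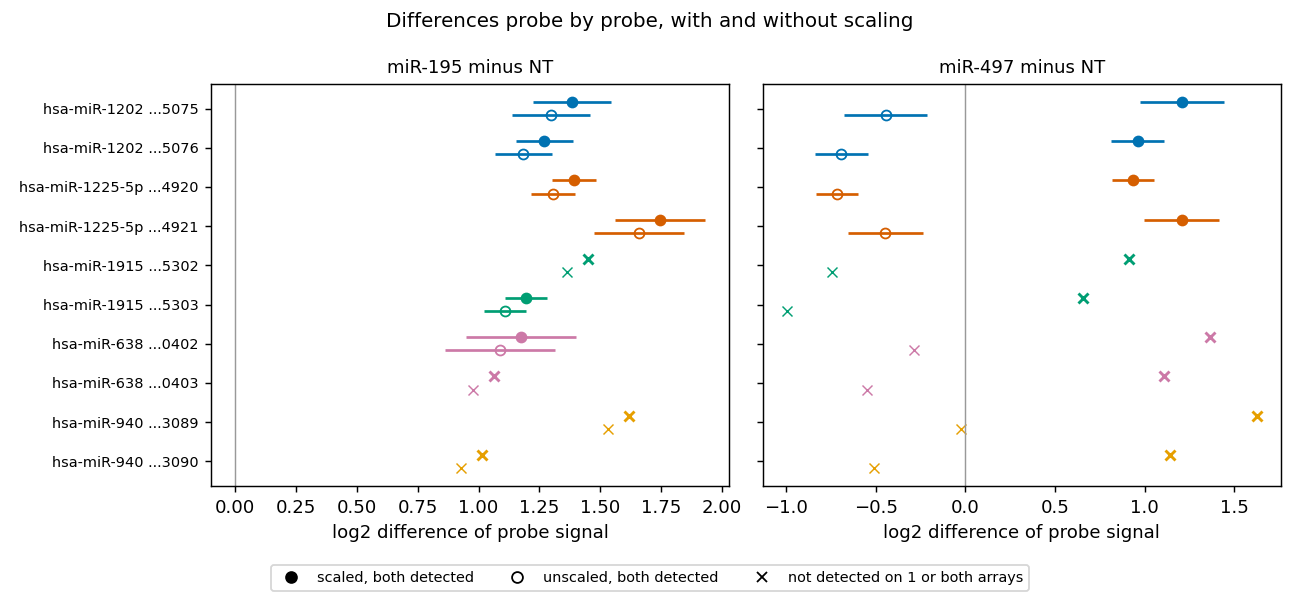
Log2 difference of each member probe for miR-195 minus NT and miR-497 minus NT; filled circles are scaled and open circles unscaled differences of probes detected on both arrays, bars are the SD from spots, and crosses are plain ratios of means where a probe was not detected on 1 or both arrays (heavy scaled, thin unscaled), which have no measured fold. Measured probes lie above 0 on the left with either scaling, and the 4 on the right lie between 0.94 and 1.21 scaled but between -0.71 and -0.44 unscaled.

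Between miR-497 and NT the direction depended on the scaling. As scanned, hsa-miR-1202 fell by 0.56 and hsa-miR-1225-5p by 0.60 on the log2 scale, and 113 of 118 measured miRNAs (95.8%) were at least 2-fold lower, with a median of -1.62. After scaling, hsa-miR-1202 was 1.09 ± 0.14 higher and hsa-miR-1225-5p 1.05 ± 0.11 higher, against a median of 0.03. Relative to the median of all measured miRNAs, which does not depend on the scale factor, they stood 1.06 and 1.02 above it. They were 3rd and 4th of 118, and 4 of the 118 (3.39%) reached 2-fold after scaling. Above them stood hsa-miR-720 at 2.39 ± 0.28 and hsa-miR-923_v12.0 at 1.99 ± 0.18, neither of them a member, and below the threshold came hsa-miR-21 at 0.72 ± 0.18.

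Scaled by the spike-in controls, hsa-miR-1202 and the mirtron hsa-miR-1225-5p stood below NT on miR-497, at -0.19 and -0.23. With a 75th percentile taken over every probe but the controls, they were at -0.29 and -0.33. Statements that these 2 miRNAs were higher on miR-497 therefore hold relative to the other detected miRNAs of that array. With equal RNA mass labelled, more of a miRNA per cell, more cells holding it and less of the other miRNAs cannot be told apart.

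Single probes crossed the 2-fold line in both directions. The hsa-miR-1202 probes were 1.21 ± 0.23 and 0.96 ± 0.15 higher after scaling, and the hsa-miR-1225-5p probes 0.94 ± 0.12 and 1.21 ± 0.21. Their gaps, 0.25 and 0.27, were near the median of 0.24 over 60 other miRNAs. Used spots of miR-497 lay wholly above those of NT for 5 of 10 member probes after scaling and wholly below for 5 of 10 without it, and the rest overlapped. With flagged spots put back these counts were 4 and 2 of 10. No such share was counted over all probes. Without scaling, 95.8% of the measured miRNAs were at least 2-fold lower on miR-497.

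For hsa-miR-1915, hsa-miR-638 and hsa-miR-940 no fold between miR-497 and NT could be given after scaling. Without scaling hsa-miR-1915 was at least 1.66-fold lower on miR-497. hsa-miR-638 was 1.28-fold lower by its own undetected signal there, which is counted as a bound but sets no limit. The label of higher after transfection restates the choice of members. On miR-195 it rests on a measured difference for 4 members and on a bound for the other. On miR-497 it rests on 2 members and only relative to the array's own brightness.

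**Figure D3:**
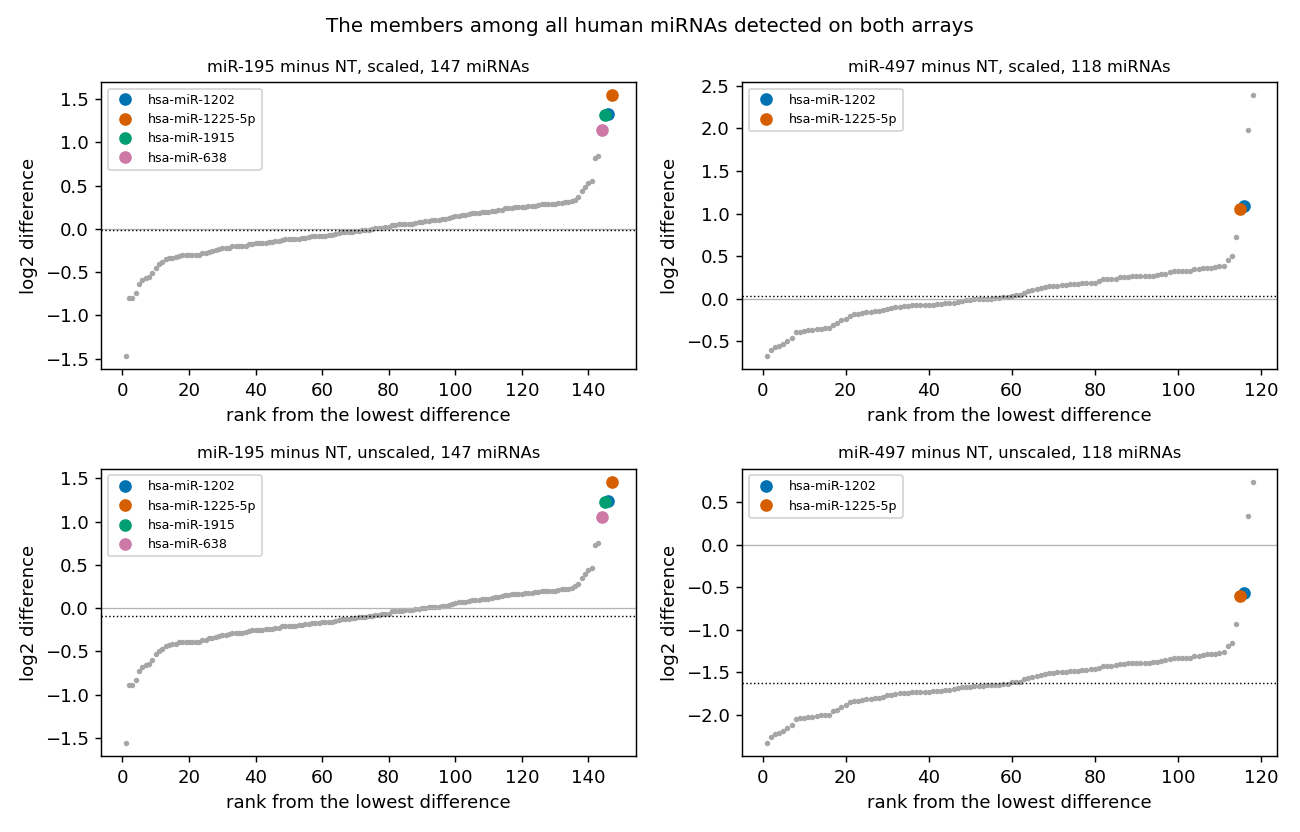
Log2 difference of each human miRNA detected on both arrays, in rank order from the lowest, for miR-195 minus NT and miR-497 minus NT, scaled above and unscaled below; coloured points are members, the dotted line is the median and the transfected miRNAs are left out. Members are the 4 highest of 147 on the left and the 3rd and 4th highest of 118 on the right, where the unscaled values of both lie below 0.

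The arrays of the 2 mimics were also set against each other, which shares no NT array. This is not free of the choice either, since members were picked for being higher on a transfected array. hsa-miR-1202 was 0.24 ± 0.15 lower on miR-497 than on miR-195 after scaling, and hsa-miR-1225-5p 0.49 ± 0.10 lower, with a median of 0.02 over 117 miRNAs. From the highest difference, they ranked 104 and 116 of 117. hsa-miR-1915 was at least 1.31-fold lower. Neither member measured on both arrays reached 2-fold in either direction after scaling, and for hsa-miR-638 and hsa-miR-940 no fold could be given. Of all measured miRNAs, 2 of 117 (1.71%) were at least 2-fold higher and none lower. Without scaling hsa-miR-1202 was 3.49-fold and hsa-miR-1225-5p 4.16-fold lower on miR-497, where 97.4% of the measured miRNAs were at least 2-fold lower.

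G+C share was then set beside the differences over all names whose composition could be settled, 80.3% of 851. At or above the share of hsa-miR-1202 stood 28 names, the 5 members and 23 others. Of the 23 others 22 were detected on no array. The remaining one was hsa-miR-324-3p, which is the only comparator of like composition. It had 382 ± 29.7 units on NT, 314 ± 20.7 on miR-195 and 83.9 ± 7.81 on miR-497. Its scaled difference from NT was -0.19 ± 0.15 on miR-195 and -0.53 ± 0.17 on miR-497, opposite in sign to the members. Like hsa-miR-940, it is richer in C (43.5%) than in G (30.4%). Of the 117 measured miRNAs settled below that share none reached 2-fold on miR-195, with a median of -0.01. Because the members were picked for being higher, and 1 comparator was measured, G+C share and the choice of members cannot be told apart.

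**Figure D4:**
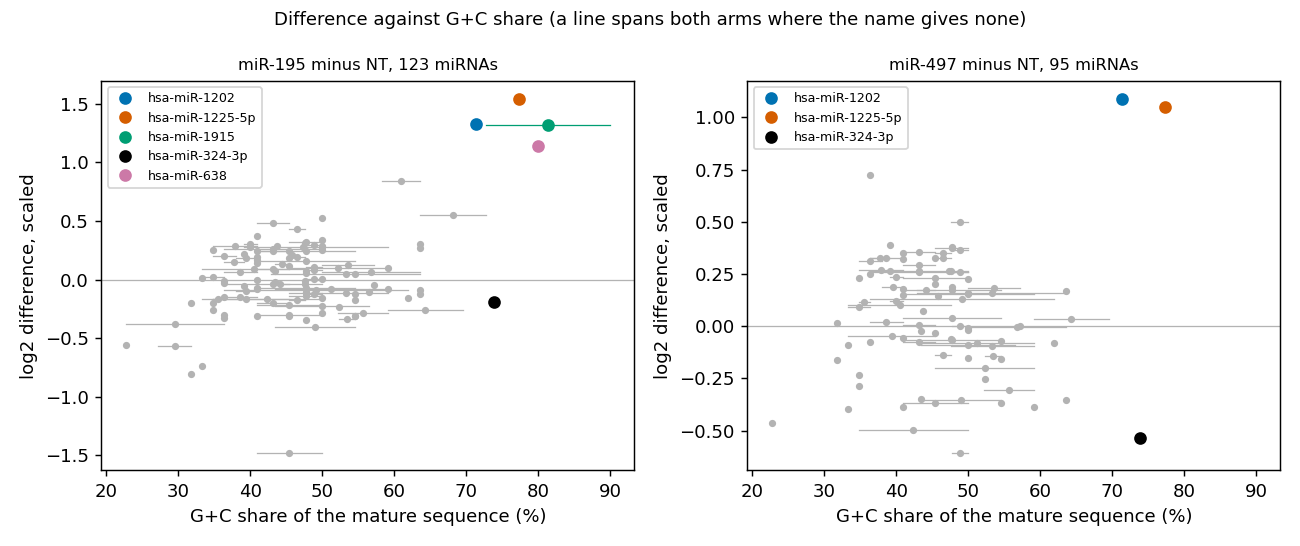
Scaled log2 difference against the G+C share of the mature sequence for miRNAs detected on both arrays and matched to a sequence, 123 for miR-195 minus NT and 95 for miR-497 minus NT; a horizontal line spans both arms where the array name gives none, colours mark members and black marks hsa-miR-324-3p. Among the miRNAs plotted, members sit at the upper right, and hsa-miR-324-3p, at 73.9%, sits below 0 in both panels. For miR-497 minus NT, the miRNAs ranked above the members had no settled G+C share and are not plotted.

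The mirtron origin of hsa-miR-1225-5p was followed in a list of 16 other mirtron names, none of which was detected on any array. Their signals were between -19.4 and 37.9 units on miR-195. As scanned, 14 of 16 were higher on miR-195 than on NT and 1 of 16 was higher on miR-497 than on NT, whereas 49.8% and 50.2% of all 677 names detected nowhere were higher. The median signal of the list was 0.83 units on NT, 9.94 on miR-195 and -4.57 on miR-497. None of these signals was well above background, and no fold is given. Of the 22 undetected GC-rich names, 14 were higher on miR-195 than on NT without scaling, and 8 were higher on miR-497. Their median signal was -5.68 units on NT, -5.53 on miR-195 and -7.20 on miR-497. Dividing negative signals by a smaller percentile lowers them, so no scaled count is given.

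By likeness of pattern, measured as the distance between the pair of scaled differences from NT, hsa-miR-1202 lay nearest to hsa-miR-1225-5p, 0.22 away on the log2 scale. The nearest of 115 other miRNAs was hsa-miR-923_v12.0 for both, at 1.03 and 1.19. The pair of points rests on 3 arrays, of which NT is shared. The distance uses the same differences from NT by which the members were chosen. No other member was measured on all 3 arrays, so the nearness of this pair describes the choice.

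The scanner software's own total per miRNA gave a different account of hsa-miR-940. It listed 689 units on NT and 535 on miR-195, against 6.15 and 11.6 units from the one probe of hsa-miR-940 that the software called significant, or 0.893% and 2.17% of the totals. The excess, 682.575 and 522.937 units, equalled the total of hsa-miR-93, the detected name listed just before it. On miR-497, where the software called no probe of hsa-miR-940 significant, it listed 0.1 units. Where the software detected one of the other members, the total equalled the sum of its own significant probes. That was both probes on NT and miR-195. On miR-497 it was both for hsa-miR-1202, both for hsa-miR-1225-5p and 1 of 2 for hsa-miR-638, and hsa-miR-1915, with no significant probe, was listed at 0.1 units. The deposited normalized table carries these totals on a log2 scale, with totals under 1 set to 1 and so listed at 0, so that hsa-miR-940 stands there at 9.43 on NT and 9.06 on miR-195, a difference of -0.37, whereas its own spots were higher on miR-195. In the same table hsa-miR-1202, hsa-miR-1225-5p, hsa-miR-1915 and hsa-miR-638 were 1.23, 1.44, 1.22 and 1.04 higher on miR-195 than on NT.

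**Figure D5:**
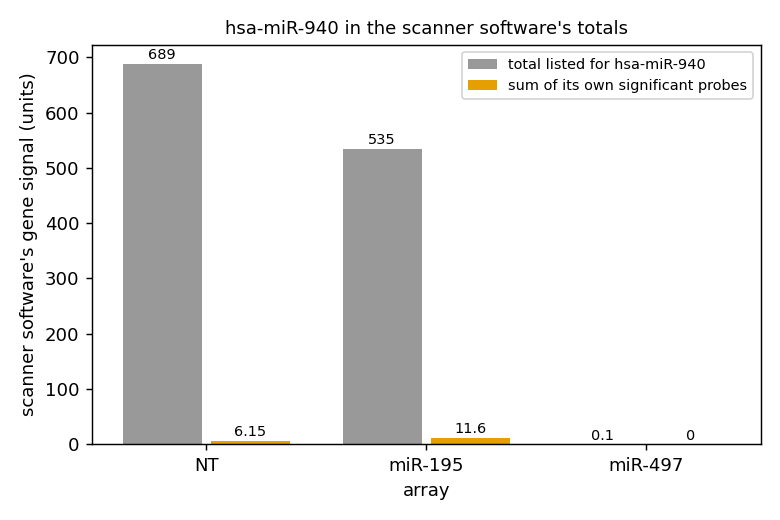
Scanner software's gene signal (linear units) on each array, as the total listed for hsa-miR-940 (grey) and as the sum of its own significant probes (orange). The listed totals of 689 and 535 on NT and miR-195 exceed the 6.15 and 11.6 units of its own probes, and on miR-497 both are near 0.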

How the data were processed

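Scanner files deposited for the 3 arrays gave a linear intensity per spot. Agilent Feature Extraction 10.7.1.1, named in the submitters' processing notes, had subtracted the background and detrended each array, with no scaling between arrays. The authors also deposited a table of log2 values, which equalled the log2 of the software's total per miRNA after totals under 1 were set to 1. Files name build hg19. Sequences and coordinates are RefSeq's on GRCh38.p14. The members and lists were chosen with earlier results of these data known.

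Spots flagged by the software as non-uniform or as population outliers were left out. Spot signals were averaged per probe, summed per miRNA, divided by the array's 75th percentile over the 183 probes detected on all 3 arrays, and converted to log2. All differences of a comparison shift together with the scale factor, so the median of all measured miRNAs is given beside the differences. A miRNA not detected on 1 array has a bound, set by the lowest detected signal there, or by its own where that was higher. Names were matched to sequences exactly in 297 of 851 cases, to both arms in 350 and to 1 listed arm in 90. The fixed size was 2-fold. With 1 array per group no test was possible. Precision is limited by the number of arrays. Named miRNAs were the 5 members, GC-rich comparators that were detected, those nearest to 2-fold on each side and those nearest in pattern. Alternatives covered scaling, background (normexp, offset 50, limma 3.58.1), probe summary, spot filter, detection, the software totals and the deposited table. Python 3.11.15 and R 4.3.3 were used.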

Additional observations from a re-analysis of the deposited data

Results flagged for a closer look

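Without scaling, the values of 4 members lay in opposite directions on the 2 transfected arrays, higher on miR-195 and lower on miR-497 than on NT. Between miR-497 and NT, used spots of both hsa-miR-638 probes and of 1 hsa-miR-1915 probe overlapped. Members were picked for being higher, so this is no trait of theirs alone. Of the measured non-members, 53 of 143 were higher on miR-195 than on NT without scaling, and 2 of 116 were higher on miR-497. Non-members with opposite directions on the 2 arrays were not counted. On miR-497 the log2 difference was -0.56 for hsa-miR-1202 and -0.60 for hsa-miR-1225-5p. It was at most -0.73 for hsa-miR-1915, as a bound. For hsa-miR-638 it was -0.36, taken from its own undetected signal on miR-497, which is counted as a bound but sets no limit. The difference between the 2 effects was not tested, since each group held 1 array, and after scaling hsa-miR-1202 and, like it, hsa-miR-1225-5p stood higher on both arrays. The median of all measured miRNAs on miR-497 was -1.62 without scaling.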

How the results depend on the processing

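No paired analysis was possible because each group held 1 array, and for the same reason no array could be left out. For miR-195 minus NT the median member difference (1.32, bounds at their bound) stayed above 0 under all 14 alternatives. It was 0.78 with the 75th percentile over all probes, 0.43 with normexp and its offset of 50 units, 1.099 with quantile normalization and 1.54 with spike-in scaling. For miR-497 minus NT the median (1.07) reversed to -0.31 with the percentile over all probes, -0.77 in the deposited table, -0.58 without scaling and -0.23 with spike-ins, and was 0.75 from the software totals. The medians covered unlike sets, 2 members for 1.07, then 4, 5, 4 and 3 for the reversed values. The deposited one counted hsa-miR-1915 and hsa-miR-940, both listed at 0 on miR-497, as bounds. In those 4 reversed settings hsa-miR-1202 stood at -0.29, -0.53, -0.56 and -0.19, and hsa-miR-1225-5p at -0.33, -0.57, -0.60 and -0.23. hsa-miR-940 reversed to -0.37 on miR-195 in the deposited table. From the software totals, which that table carries, it had no fold. It was not detected on NT by the rule used here, and its total there, 689 units, was above the 535 on miR-195. By probe, the median without scaling was -0.57 for miR-497 minus NT (1.08 scaled) and -1.95 for miR-497 minus miR-195 (-0.38 scaled).

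For miR-497 minus miR-195 the member median (-0.39) was -1.08 with the percentile over all probes, -2.01 in the deposited table, -0.24 without a detection filter, -1.80 without scaling, -0.11 with normexp, -0.70 from the software totals and -1.74 with spike-ins. These medians covered 3 members for -0.39, 2 with normexp and 5 in the other settings named. The count of miRNAs at least 2-fold higher on miR-195 than NT (4) was 1 with the percentile over all probes, 2 with normexp, 13 from the software totals, 16 in the deposited table and 87 with no detection filter. For miR-497 against NT (4) it was 1, 10, 16, 13 and 167 in the same order, 0 without scaling and 1 with spike-ins. For miR-497 against miR-195 (2) it was 0, 7, 13, 11 and 132, 0 without scaling and with spike-ins, and 1 each with quantile normalization, the mean of log2 probes and the stricter detection rule. No GC-rich comparator was at least 2-fold higher under any alternative, but only 1 was measured in most settings and at most 4 in any. Without scaling hsa-miR-324-3p was 4.55-fold lower on miR-497 than on NT, where 95.8% of the measured miRNAs were at least 2-fold lower. The causes were not tested.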
